A study of Petromyzon marinus with 17 samples.

Results

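Muscle and PBMC (peripheral blood mononuclear cells) of the sea lamprey (Petromyzon marinus) were compared for the location of their non-methylated islands (NMIs). NMIs were mapped by BioCAP, in which a biotinylated CxxC zinc-finger domain of human KDM2B binds unmethylated CpG sites and pulls down the sonicated genomic DNA that carries them. Each tissue had 2 BioCAP libraries, and the deposited interval list of each library, on the petMar3 assembly, is the measurement. An NMI of a tissue was taken as a stretch covered in both of its libraries, and the stretches of muscle and PBMC were joined into merged NMIs where they overlapped or touched. This gave 144825 merged NMIs, each of them shared, muscle-private or PBMC-private, whereas all 6 sampled tissues (sperm, day 1 and day 2 embryos, brain, muscle and PBMC) gave 166793, of which 134346 (80.5%) overlapped an NMI of muscle or PBMC. The animals were untreated adult lampreys several years old, with no genotype given, and replicates were biological. The muscle replicates came from a male and a female and both PBMC replicates from males, so sex was not balanced between the tissues, and its part in the results was not tested. PBMC are a mixture of white blood cells, and muscle tissue also holds vessels, nerve and blood, so each list describes a mixture. No expression or sequence data were used that could check either label. Muscle had an input library and PBMC had none among the samples used here.

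In most vertebrate genomes the majority of CpG sites are methylated, and the stretches that escape methylation, also called CpG islands, mark promoters and other regulatory elements. Most of them are free of methylation in every cell type, whereas a smaller set gains or loses methylation as cells differentiate. Proteins with a CxxC domain such as KDM2B bind these stretches in living cells and recruit chromatin regulators to them. The lamprey differs from this pattern, and the study reports intermediate methylation at most of its CpG sites. In the lamprey, germline-specific DNA is also eliminated from the somatic lineages of the early embryo. Muscle and PBMC are both somatic, and the comparison asks which NMIs differ between somatic cell types.

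Muscle libraries held more NMIs than PBMC libraries. Muscle replicates 1 and 2 held 140638 and 141334 NMIs, and PBMC replicates 1 and 2 held 115448 and 117044. The means were 140986 ± 492 in muscle and 116246 ± 1129 in PBMC (SD, n = 2 each), a difference of 24740 that is larger than the spread between replicates. The tissues did not overlap, and the exact permutation test gave p = 0.333 (two-sided), the smallest value that 2 libraries against 2 can give. NMIs covered 80.1 and 77.9 Mb in muscle against 66.0 and 74.0 Mb in PBMC. The median width was 446 and 432 bp in muscle against 448 and 496 bp in PBMC. PBMC replicate 2 stood apart from PBMC replicate 1 in width, with 13.4% of its NMIs at 1 kb or wider against 10.4%. It also had a lower median fold enrichment over the local background, 10.5 against 12.7, whereas both muscle libraries lay at 10.5 and 10.6. The lists hold no read counts. The study's own library statistics give more uniquely mapped read pairs for each muscle library than for either PBMC library, so list length and tissue cannot be told apart, and their part in the counts below was not tested beyond the equally long lists that follow.

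Each list was therefore also cut to its 115448 NMIs with the largest −log10 q-value, the length of the shortest of the 4 lists. For muscle this moved the weakest NMI kept from a −log10 q of 1.30 in both replicates to 11.3 and 11.2. In PBMC it stayed at 1.34 in replicate 1, the shortest list, and moved from 1.32 to 4.01 in replicate 2. In the equally long lists the tissues overlapped in bases covered (72.3 and 70.1 Mb in muscle, 66.0 and 73.5 Mb in PBMC) and in median width (494 and 480 bp in muscle, 448 and 500 bp in PBMC), and the exact permutation p was 1 (two-sided) for both. The higher coverage of muscle and its lower median width were thus seen with the deposited lists and not with equally long ones. Counts of private NMIs and their clustering are given for both below.

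**Figure D1:**
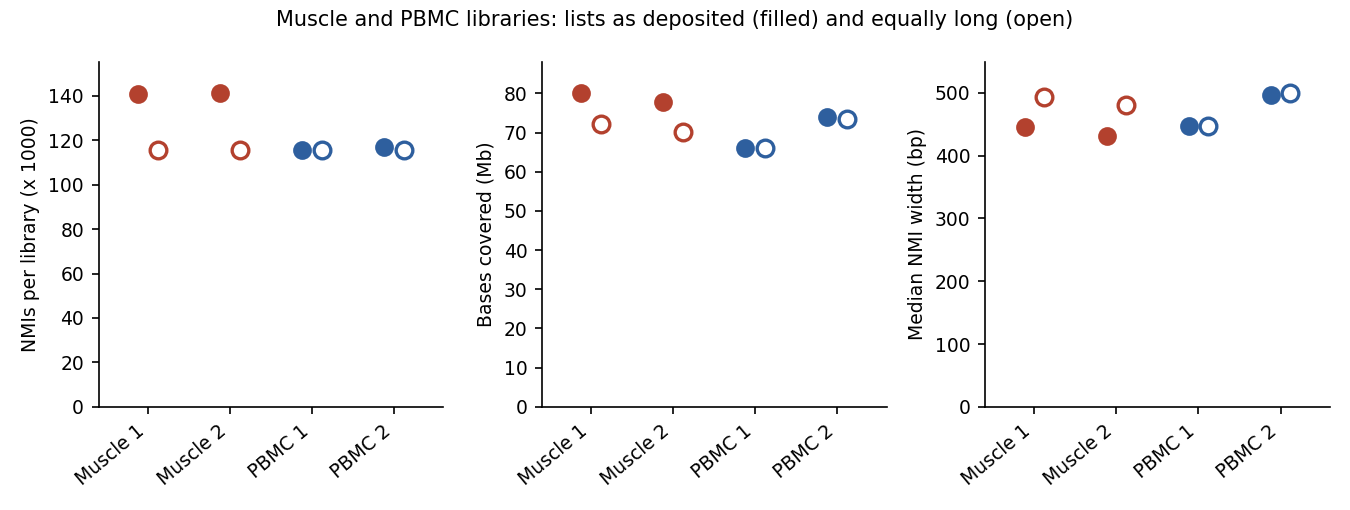
NMIs per library (left, in units of 1000), bases covered in Mb (middle) and median NMI width in bp (right) for the 4 libraries, with 1 point per library and kind of list, filled for lists as deposited and open for equally long lists. With lists as deposited, muscle held 140638 and 141334 NMIs and PBMC 115448 and 117044, and with equally long lists bases and width overlapped between tissues.

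NMIs recurred more often between replicates than between tissues. Of the NMIs of one muscle library, 5.35% and 5.11% had no overlapping NMI (1 bp or more) in the other muscle library. In PBMC the corresponding values were 4.80% for replicate 1 and 8.56% for replicate 2. Between tissues, 25.5% to 27.0% of muscle NMIs had no counterpart in a PBMC library, and 10.1% to 12.7% of PBMC NMIs had none in a muscle library. Equally long lists brought both directions to each other, at 19.4% to 19.8% for muscle NMIs and 18.2% to 21.1% for PBMC NMIs, and the values between replicates stayed at 5.12% to 7.62%. The lack of counterparts between tissues thus exceeded that between replicates in every library pair with either kind of list. The Jaccard index, the bases covered in both libraries over those covered in either, was 0.867 between muscle replicates and 0.809 between PBMC replicates. Across tissues it lay between 0.639 and 0.652 over the 4 pairs of libraries. In equally long lists it was 0.858 and 0.812 between replicates and 0.631 to 0.655 across tissues.

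**Figure D2:**
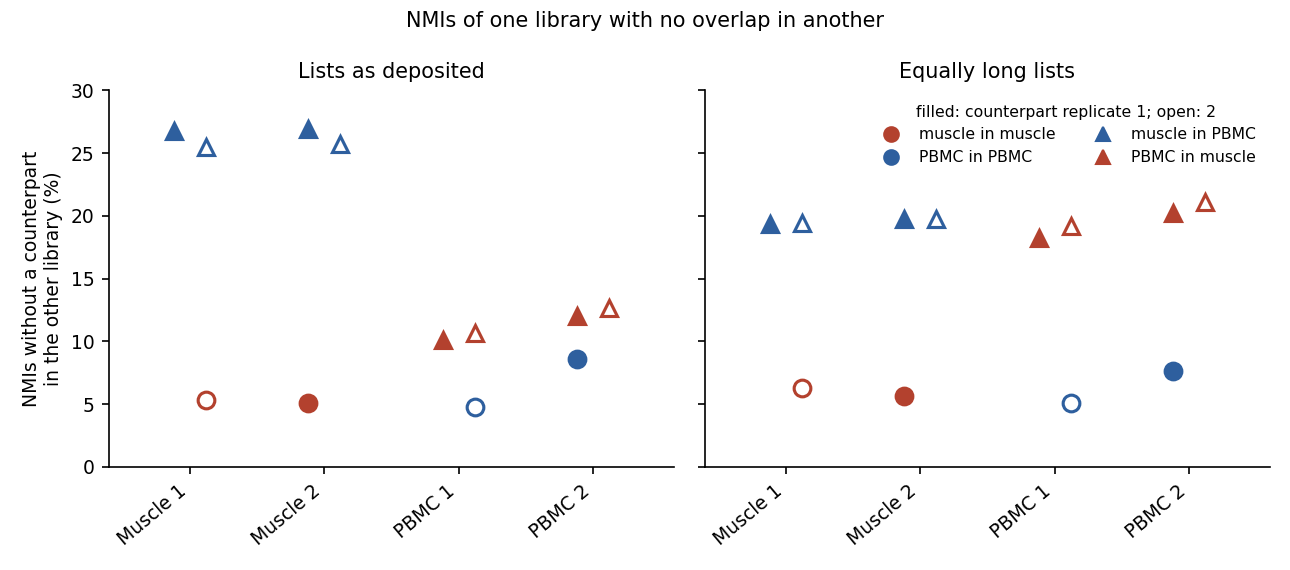
Percentage of the NMIs of each library (x axis) that overlap no NMI of another library, for lists as deposited (left) and equally long lists (right), with circles for the other replicate of the same tissue and triangles for libraries of the other tissue. All circles lie between 4.80% and 8.56%, and the triangles lie between 10.1% and 27.0% with lists as deposited and between 18.2% and 21.1% with equally long lists.

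Most NMIs were common to both tissues. The 135103 stretches common to both muscle libraries covered 73.4 Mb and the 110518 of PBMC covered 62.6 Mb. Of the muscle stretches 73.3% overlapped a PBMC stretch, and of the PBMC stretches 89.4% overlapped a muscle stretch. After joining, 97042 merged NMIs (67.0%) were shared, 36113 (24.9%) were muscle-private and 11670 (8.06%) were PBMC-private. Shared NMIs held 65.0 Mb, 79.2% of all bases in merged NMIs, against 13.1 Mb in muscle-private and 3.97 Mb in PBMC-private NMIs. There were 3.09 muscle-private NMIs for each PBMC-private NMI. Of the muscle-private NMIs, 28905 (80.0%) overlapped no interval of either PBMC library, and 7200 overlapped an interval of 1 of them. Of the PBMC-private NMIs, 7898 (67.7%) overlapped no interval of either muscle library, and 3758 overlapped an interval of 1 of them. The remaining 8 muscle-private and 14 PBMC-private NMIs overlapped intervals of both libraries of the other tissue that had no base in common.

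The excess of muscle-private NMIs depended on the length of the lists. With equally long lists, 86902 of 129728 merged NMIs (67.0%) were shared, 21358 (16.5%) were muscle-private and 21468 (16.5%) were PBMC-private, a ratio of 0.995. Of these, 17207 muscle-private NMIs (80.6%) overlapped no interval in either deposited PBMC list. Only 7816 of the PBMC-private NMIs (36.4%) overlapped none in either deposited muscle list. Most PBMC-private NMIs of the equally long lists thus overlapped a muscle interval that the cut had removed or that only 1 muscle library held. The shared part and the Jaccard index of the common stretches (0.655 as deposited, 0.653 with equal lengths) moved little. When only the 20000 NMIs with the largest −log10 q of each library were used, 4580 were muscle-private and 5315 PBMC-private, and only 54.4% of merged NMIs were shared. Most NMIs private to these short lists overlapped an interval in a deposited list of the other tissue. Of those 4580 muscle-private NMIs, 299 overlapped no interval in either deposited PBMC list, and of the 5315 PBMC-private NMIs, 8 overlapped none in either deposited muscle list. Read against lists of 115448 NMIs in both tissues, the counts were 300 for muscle and 43 for PBMC. With 60000 NMIs per library they were 3251 and 1323, and with 115448 per library they were 17388 and 15208. NMIs missing from both of these lists of the other tissue were thus more numerous in muscle, by a ratio of 6.98 at 20000 NMIs, 2.46 at 60000 and 1.14 at 115448. Against the lists as deposited, of which those of muscle are longer, the ratios were 37.4, 5.43 and 2.20. Without PBMC replicate 1 the ratio of muscle-private to PBMC-private NMIs in the lists as deposited was 1.88, the lowest of the 4 values obtained by leaving out a library. With only NMIs of a −log10 q of 10 or more in every list, 29690 were muscle-private and 11760 PBMC-private, a ratio of 2.52. The lists still differed in length there, with a mean of 19013 more NMIs per library in muscle.

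Private NMIs were short and shared NMIs were long. The median width was 536 bp for shared NMIs (quartiles 407 and 796 bp), 316 bp for muscle-private NMIs (264 and 396 bp) and 303 bp for PBMC-private NMIs (259 and 373 bp). Of the shared NMIs 14.9% were 1 kb or wider, against 1.16% of the muscle-private and 0.574% of the PBMC-private NMIs. Part of this follows from the definition, because a shared NMI is the union of the stretches of both tissues. The stretch common to both tissues within a shared NMI had a median of 431 bp, still wider than either private class. The medians were 562, 362 and 317 bp with equally long lists.

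Private NMIs also lay low in the lists of their own tissue. In muscle replicates 1 and 2 the median fold enrichment was 6.52 and 6.80 for muscle-private NMIs against 13.8 for shared NMIs in both. In PBMC replicates 1 and 2 it was 6.18 and 6.25 for PBMC-private NMIs against 15.1 and 12.7 for shared NMIs. As percentiles of the whole list by −log10 q, muscle-private NMIs had medians of 26.6 and 28.4 and PBMC-private NMIs of 19.9 and 25.1, whereas shared NMIs lay between 57.3 and 63.3. About 20% of muscle-private NMIs (19.9% and 20.8%) were nevertheless in the upper 50% of their list, against 10.1% and 14.0% of PBMC-private NMIs.

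Absence from the other tissue fell steadily with strength. Among the weakest 10% of muscle stretches, 50.03% overlapped no interval of either PBMC library, and among the strongest 10% the share was 1.55% (209 of 13511). For PBMC stretches the share without any muscle interval went from 24.3% to 0.0543% (6 of 11052). In equally long lists the weakest 10% gave 38.8% for muscle and 47.2% for PBMC. The order of the tissues turned with strength there, and the strongest 10% gave 1.26% for muscle (138 of 10961) and 0.154% for PBMC (17 of 11016). In the middle of the range, in the fifth step from the weakest, 15.5% of muscle and 9.79% of PBMC stretches were absent from the other tissue.

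**Figure D3:**
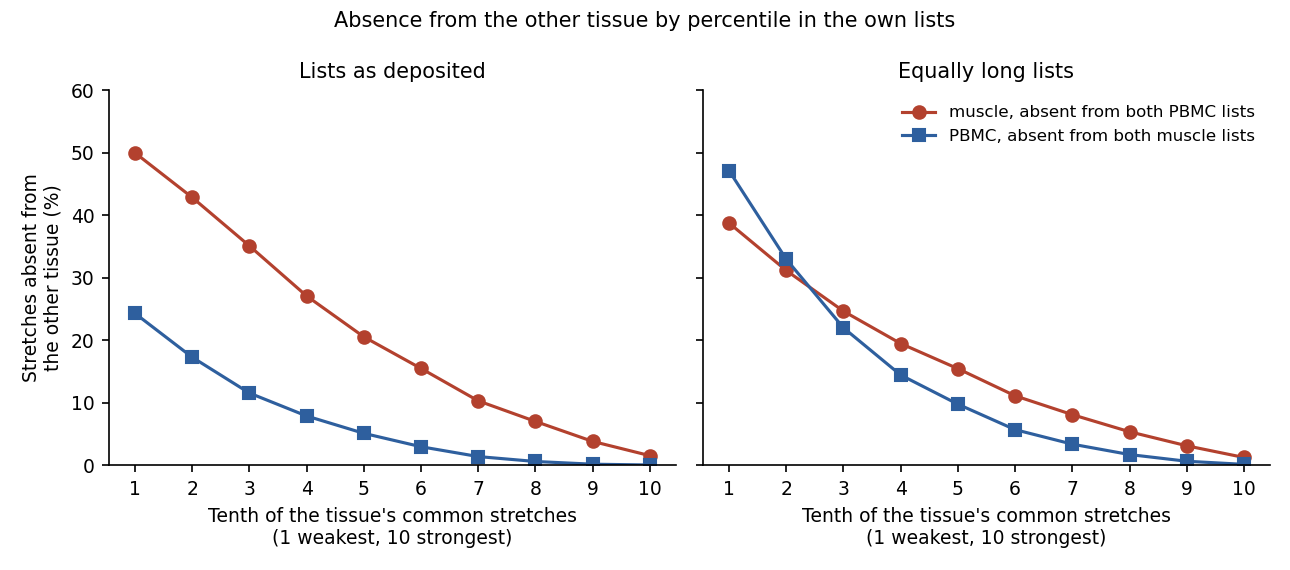
Percentage of the common stretches of muscle (circles) and PBMC (squares) that overlap no interval in either library of the other tissue, by steps of 10% of the stretches ordered from weakest to strongest by their mean percentile in the 2 lists of their own tissue. With lists as deposited (left) muscle goes from 50.03% to 1.55% and PBMC from 24.3% to 0.0543%, and with equally long lists (right) PBMC starts higher (47.2% against 38.8%) and ends lower (0.154% against 1.26%).

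Shared NMIs had nearly the same extent in both tissues. The bases common to both made up a median of 87.1% of the merged NMI, and 95.8% of shared NMIs were common over 50% or more of their length. In each of the 4 libraries between 98.2% and 99.0% of shared NMIs were a single interval. Of the 97042 shared NMIs, 38.1% covered more bases in both muscle libraries than in either PBMC library and 34.1% covered more in both PBMC libraries. These shares come with a difference between replicates of one tissue, since PBMC replicate 1 covered more bases than PBMC replicate 2 in only 13.6% of shared NMIs. In rank, 40.5% of shared NMIs stood at a higher percentile in both muscle lists and 22.5% in both PBMC lists. In equally long lists the order turned, and of 86902 shared NMIs 28.0% stood at a higher percentile in both muscle lists and 35.0% in both PBMC lists. The median percentile was 60.3 and 59.9 in muscle and 61.2 and 62.3 in PBMC there, against 63.3 and 63.1 in muscle and 57.3 and 59.2 in PBMC as deposited. For bases covered the direction stayed, with 41.1% higher in both muscle libraries and 31.3% in both PBMC libraries.

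The longest and strongest NMIs give the private classes a position. No gene annotation of petMar3 was used, so what lies at each is not given. The longest muscle-private NMI that no PBMC library held was on scaffold PIZI01000026v1, at positions 1354385 to 1358779 (4395 bp), with a fold enrichment of 11.8 in muscle replicate 1 and 12.9 in replicate 2. All 8 libraries of brain, sperm and day 1 and day 2 embryos also held an interval there. The same held for the next 4 by length. They lay on PIZI01000174v1 at 278120 to 282254 (4135 bp), on PIZI01001168v1 at 12299 to 15860 (3562 bp) and at 8250 to 11748 (3499 bp), and on PIZI01000055v1 at 974414 to 977805 (3392 bp). The fold was 17.7 and 20.9 on PIZI01000055v1, 3.88 and 3.82 on PIZI01000174v1, and between 1.57 and 2.90 for both on PIZI01001168v1. In the equally long lists the NMI of 3562 bp had no interval in muscle replicate 1. Long NMIs not called in PBMC thus included weak ones of low fold as well as strong ones. In the lists as deposited, each of these 5 was called in every library outside PBMC. PBMC was also the only sampled tissue without an input library, and the part of the missing input in these calls was not tested.

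The muscle-private NMIs with the highest fold were shorter. On PIZI01005996v1, at 9384 to 9644 (261 bp), the fold was 43.9 and 43.1 and all 8 libraries of the other tissues held an interval. On PIZI01000036v1, at 1186228 to 1187308 (1081 bp), it was 42.7 and 41.4, and on PIZI01001698v1, at 16869 to 17843 (975 bp), it was 41.2 and 40.6. Of the 8 other libraries only the 2 of brain held an interval at either of these last regions. Both were therefore found in brain and muscle and in no library of PBMC, sperm or embryos.

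The longest PBMC-private NMIs that no muscle library held were shorter, at 2053 bp or less. They lay on PIZI01000028v1 at 5504012 to 5506064 (2053 bp), on PIZI01000062v1 at 1929548 to 1931454 (1907 bp), on PIZI01000029v1 at 10471425 to 10473321 (1897 bp), on PIZI01000006v1 at 15975593 to 15977469 (1877 bp) and on PIZI01000016v1 at 15456022 to 15457643 (1622 bp). Their fold in PBMC replicate 1 lay between 15.4 and 44.3, and in replicate 2 between 10.2 and 32.1. The NMIs on PIZI01000028v1 and PIZI01000029v1 had an interval in all 8 libraries of the other tissues. That on PIZI01000062v1 was in all sperm and embryo libraries and in no brain library, and that on PIZI01000016v1 was in both brain and both sperm libraries and in no embryo library.

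The PBMC-private NMI with the highest fold was on PIZI01000060v1 at 2801249 to 2802278 (1030 bp), with a fold of 90.3 in PBMC replicate 1 and 65.3 in replicate 2. The next lay on PIZI01000013v1 at 1995941 to 1997348 (1408 bp; 65.6 and 50.5) and on PIZI01000047v1 at 257120 to 258061 (942 bp; 47.7 and 36.1). All 8 libraries of brain, sperm and embryos held an interval at each of them, and neither muscle library did. These regions were thus missing from muscle alone. The highest fold anywhere in the list was 93.0 in PBMC replicate 1 and 65.4 in PBMC replicate 2, so the NMI on PIZI01000060v1 was close to the strongest of the whole PBMC lists.

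Over all private NMIs that no library of the other tissue held, 4311 of 28905 in muscle (14.9%) and 581 of 7898 in PBMC (7.36%) had an interval in every one of the 8 other libraries. A further 5565 muscle NMIs (19.3%) and 1413 PBMC NMIs (17.9%) had an interval in none of them. Those in all 8 were wider and stronger than those in none. In muscle the median width was 402 bp against 293 bp and the median fold 8.99 and 9.99 in replicates 1 and 2 against 6.33 and 6.23. In PBMC the median width was 348 bp against 282 bp and the median fold 6.97 and 7.14 against 5.81 and 5.61.

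The 3 longest shared NMIs were on PIZI01006937v1 at 1138 to 8775 (7638 bp), on PIZI01000098v1 at 513510 to 520452 (6943 bp) and on PIZI01000012v1 at 14598554 to 14605079 (6526 bp). On PIZI01006937v1 the NMI was 1 interval in both muscle libraries and in PBMC replicate 1 and was broken into 5 intervals in PBMC replicate 2. The highest fold there was 5.99 and 6.38 in muscle and 13.4 and 8.59 in PBMC. On PIZI01000098v1 the fold was 36.6 and 34.8 in muscle and 50.04 and 33.5 in PBMC. On PIZI01000012v1 it was 21.0 and 22.9 in muscle and 54.6 and 20.1 in PBMC. PBMC replicate 1 had the highest fold of the 4 libraries at all 3, and PBMC replicate 2 lay above muscle only at the first. Over its whole deposited list PBMC replicate 1 also had the highest median fold of the 4, at 12.7.

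Private NMIs clustered along the scaffolds. Of the merged NMIs next to a muscle-private NMI on the same scaffold, 35.2% were also muscle-private, 1.41 times the share of that class among all merged NMIs (24.9%). Of the neighbours of PBMC-private NMIs, 15.9% were PBMC-private, 1.97 times the share among all (8.06%). For shared NMIs the values were 70.8% and 67.0%. With equally long lists, in which both private classes made up 16.5%, 28.4% of the neighbours of muscle-private NMIs and 23.1% of those of PBMC-private NMIs were of the same class, 1.73 and 1.40 times the share among all. The higher ratio thus belonged to PBMC with lists as deposited and to muscle with equally long lists. No test was run, because neighbouring NMIs are not independent.

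The clustering was local. In the lists as deposited, the second NMI to either side was of the same class in 32.0% of cases for muscle-private NMIs and 12.7% for PBMC-private NMIs. The tenth NMI away was of the same class in 28.2% and 10.5%, and the 50th in 26.0% and 8.79%, close to the shares among all merged NMIs. By distance in base pairs, the excess over the share of the class was larger for close neighbours in both classes. Where the neighbour lay less than 1 kb away, 35.5% of the neighbours of muscle-private NMIs were muscle-private, and where it lay 20 to 100 kb away the value was 34.3%. The share of muscle-private NMIs among all neighbours in these bands was 20.0% and 31.1%, so the excess was concentrated in close neighbours. For PBMC-private NMIs the same-class share fell from 19.5% below 1 kb to 11.8% at 20 to 100 kb, with 7.56% and 8.01% of all neighbours PBMC-private.

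**Figure D4:**
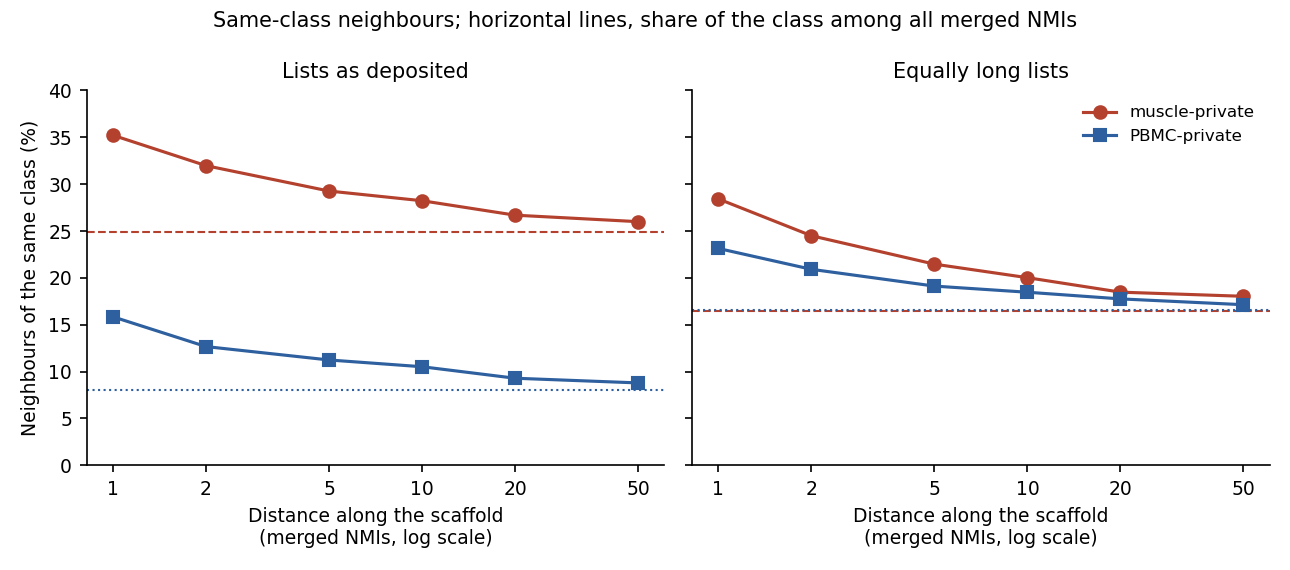
Percentage of merged NMIs of the same class at a distance of 1 to 50 merged NMIs along the scaffold (log scale), for muscle-private (circles) and PBMC-private NMIs (squares), with horizontal lines for the share of each class among all merged NMIs. With lists as deposited (left) muscle goes from 35.2% to 26.0% towards 24.9% and PBMC from 15.9% to 8.79% towards 8.06%, and with equally long lists (right) both approach 16.5%.

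Private NMIs were farther from the next NMI than shared ones. The median distance to the nearest merged NMI was 946 bp for shared, 1403 bp for muscle-private and 1136 bp for PBMC-private NMIs. To the nearest NMI of the same class it was 1337, 5380 and 13460 bp. With equally long lists the nearest NMI of the same class was 8795 bp away for muscle-private and 7613 bp for PBMC-private NMIs, so the longer distance of PBMC-private NMIs was seen only with lists as deposited.

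Runs of consecutive NMIs of one private class were longer in muscle. Of the muscle-private NMIs 46.0% stood alone and 28.7% were in runs of 3 or more, whereas 72.8% of PBMC-private NMIs stood alone and 7.74% were in such runs. There were 564 muscle-private runs of 5 or more NMIs and 20 PBMC-private ones. With equally long lists, in which the classes are of nearly the same size, there were 225 and 104, and 21.1% of muscle-private and 14.4% of PBMC-private NMIs were in runs of 3 or more. The longest runs held 20 muscle-private and 7 PBMC-private NMIs as deposited, and 17 and 12 with equally long lists.

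The longest muscle-private run lay on PIZI01000001v1 between 11254478 and 11300580, a span of 46103 bp in which the 20 NMIs covered 12791 bp. Each muscle library had 21 intervals there, PBMC replicate 1 had 1 and PBMC replicate 2 had 0. Of the 20 NMIs, 16 were also found in brain, 15 in sperm, 9 in day 1 and 8 in day 2 embryos. The second run lay on PIZI01000005v1 between 22881868 and 22918996 (37129 bp) and held 17 NMIs, with 17 intervals in each muscle library and 0 in either PBMC library. Of these, 13 were found in brain, 14 in sperm, 8 in day 1 and 9 in day 2 embryos. The third, on PIZI01000046v1 between 392985 and 425528 (32544 bp), held 15 NMIs with 15 intervals in each muscle library, 1 in PBMC replicate 1 and 0 in replicate 2. Of these 10 were found in brain and 0 in sperm, day 1 or day 2 embryos, which sets this run apart from the first 2. In the equally long lists, 20 and 17 intervals remained in muscle replicates 1 and 2 for the first run, 14 and 15 for the second, and 11 in each for the third.

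The 3 longest PBMC-private runs held 7 NMIs each. They lay on PIZI01000003v1 between 1908776 and 1915097 (6322 bp), on PIZI01000016v1 between 15452675 and 15462147 (9473 bp) and on PIZI01000038v1 between 4016883 and 4038967 (22085 bp). On PIZI01000003v1 each PBMC library had 7 intervals and neither muscle library had any. Of these 7 NMIs, 5 were found in brain, 1 in sperm and 0 in day 1 or day 2 embryos. The run on PIZI01000016v1 contains the 1622 bp NMI described above, and 2 of its 7 NMIs were found in brain, 2 in sperm and 0 in embryos. Each PBMC library had 6 intervals there, muscle replicate 1 had 1 and muscle replicate 2 had 0. On PIZI01000038v1, 4 were found in brain, 3 in sperm, 2 in day 1 and 1 in day 2 embryos. Each PBMC library had 7 intervals there, muscle replicate 1 had 0 and muscle replicate 2 had 1.

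Private NMIs were spread over the assembly and their share differed between scaffolds. The 113 scaffolds with 100 or more merged NMIs held 89.3% of all merged NMIs. On these the muscle-private share ranged from 13.0% to 40.5% with a median of 25.0%, and the PBMC-private share from 0.962% to 13.3% with a median of 7.82%. The highest muscle-private shares were 40.5% on PIZI01000084v1 (90 of 222 merged NMIs), 36.0% on PIZI01000071v1 (87 of 242) and 33.6% on PIZI01000120v1 (49 of 146). They were 33.0%, 24.5% and 28.4% with equally long lists, all above the median of 16.8%. The highest PBMC-private shares were 13.3% on PIZI01000102v1 (21 of 158), 13.2% on PIZI01000065v1 (71 of 536) and 13.2% on PIZI01000063v1 (75 of 567), and 22.4%, 23.6% and 23.6% with equally long lists against a median of 16.1%. In all, 490 of 4628 scaffolds with a merged NMI carried NMIs in both muscle libraries and in neither PBMC library, and 187 the reverse. These numbers were 273 and 372 with equally long lists, so the direction depended on list length. These scaffolds held few NMIs, with 639 and 632 muscle NMIs on the 490 and 216 and 222 PBMC NMIs on the 187.

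The private classes differed in where else they were found. An NMI was counted in another tissue when it overlapped a stretch common to both libraries of that tissue. Of the shared NMIs, 96.2% were found in brain, 84.8% in sperm, 73.8% in day 1 and 63.1% in day 2 embryos. Of the muscle-private NMIs, 57.4% were found in brain, 51.2% in sperm, 39.5% in day 1 and 22.9% in day 2 embryos. Of the PBMC-private NMIs, 59.8% were found in brain, 39.5% in sperm, 22.4% in day 1 and 11.2% in day 2 embryos. With lists as deposited the largest difference was thus in day 1 embryos, with 17.0 percentage points more of the muscle-private than of the PBMC-private NMIs. Sperm and day 2 embryos followed, both at 11.7 points. With equally long lists the day 2 difference was the larger, at 15.8 points against 14.1 in day 1, so this order depended on the lists. In sperm the difference was 3.16 points with equally long lists ordered by −log10 q and 0.0526 points when they were ordered by fold, so it depended on how the lists were cut. In brain alone of the 4 other tissues were found 19.8% of muscle-private and 30.3% of PBMC-private NMIs. In none of the 4 were 25.2% and 28.4%, and the order turned with equally long lists, at 20.9% and 18.7%.

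The difference in embryos was seen in every library and with equally long lists. In the study's own library statistics, the embryo libraries had far smaller shares of uniquely mapped read pairs than those of muscle or PBMC. They also had higher shares of duplicates. PBMC alone of these tissues had no input library. The part of either in the embryo shares was not tested. Among the NMIs of a library that overlapped no interval of either library of the other tissue, 34.5% and 36.1% were found in day 1 embryos for muscle replicates 1 and 2, against 19.6% and 19.2% for PBMC replicates 1 and 2. In day 2 embryos the values were 20.4% and 20.9% against 9.62% and 8.14%. With equally long muscle and PBMC lists they were 39.0% and 41.7% against 26.8% in both for day 1, and 26.5% and 27.6% against 12.7% and 11.3% for day 2. The muscle and PBMC libraries did not overlap in any of these, and the exact permutation p was 0.333 (two-sided, n = 2 each), the smallest the design allows. For sperm the values were 44.5% and 46.4% against 34.6% and 34.8% as deposited, and 46.8% and 49.96% against 44.4% and 45.4% with equally long lists, a smaller difference. For brain the tissues overlapped as deposited (48.4% and 49.6% against 48.9% and 49.7%), and with equally long lists PBMC lay above muscle (62.1% and 62.5% against 56.2% and 58.1%). In this count by library, the direction in brain was thus opposite to that in embryos with equally long lists and not as deposited. Over the private classes as a whole, PBMC lay slightly above muscle in brain as deposited too (59.8% against 57.4%). The cut had removed muscle NMIs of low −log10 q. Of the 15208 PBMC-private NMIs in neither equally long muscle list, 7816 were in neither deposited muscle list. For muscle-private NMIs and the PBMC lists these counts were 17388 and 17207. When all 12 lists were cut to 89979 NMIs, the length of the shortest, 44.7% of muscle-private and 27.4% of PBMC-private NMIs were found in day 1 and 44.5% and 26.0% in day 2 embryos.

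The classes also differed at the same step of rank within the lists of their own tissue. Equal rank is not equal strength. The median −log10 q of the lists as deposited was 36.4 and 36.3 in muscle and 48.1 and 38.4 in PBMC. Of the muscle-private NMIs in the lowest 25% of the muscle lists, 33.2% were found in day 1 and 12.7% in day 2 embryos, and in the highest 25% the values were 54.7% and 55.3%. For PBMC-private NMIs they were 21.2% and 8.58% in the lowest 25% of the PBMC lists, and 23.9% and 20.9% in the highest 25%, which held 134 NMIs. In sperm, the highest 25% gave 55.3% for muscle-private and 30.6% for PBMC-private NMIs. In brain the highest 25% gave 88.4% and 88.1%. In the steps below, from the lowest up, brain held 47.8%, 58.9% and 74.1% of muscle-private NMIs. For PBMC-private NMIs these shares were higher, at 53.1%, 64.4% and 78.6%. In equally long lists the highest 25% gave 91.6% and 95.3% in brain, and the step below it 78.4% and 86.8%. The shares in sperm, day 1 and day 2 were lower for PBMC-private than for muscle-private NMIs in each 25% step of the lists as deposited.

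**Figure D5:**
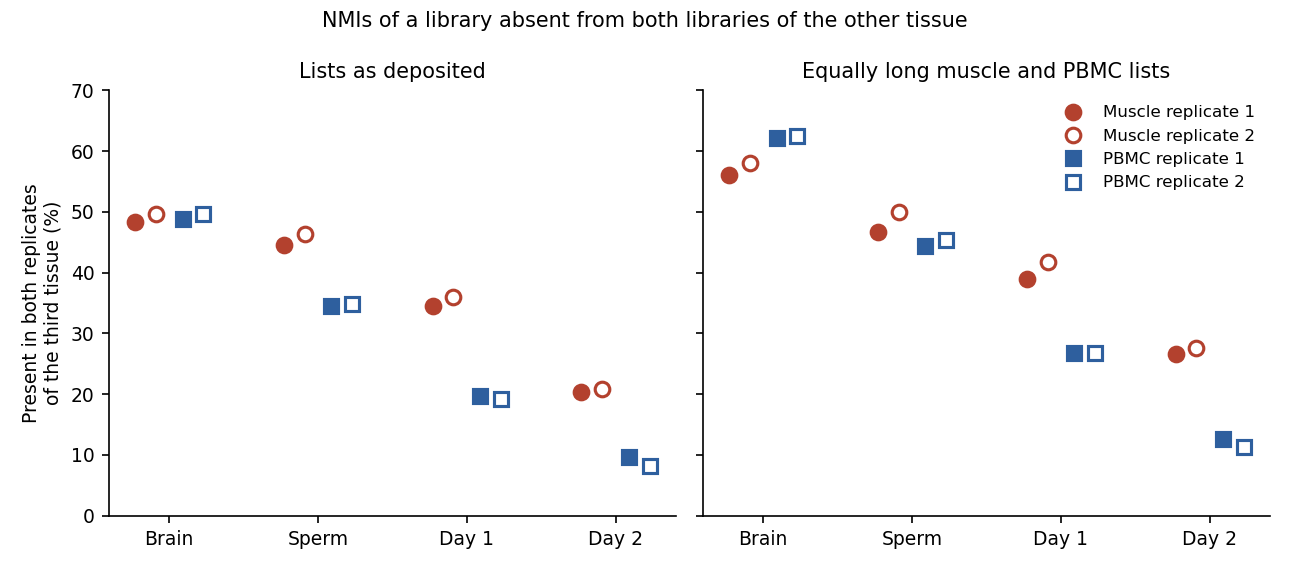
Percentage of the NMIs of each library without any interval in the other tissue that overlap a stretch common to both replicates of brain, sperm, day 1 or day 2 embryos, for muscle (circles) and PBMC (squares), with replicate 1 filled and replicate 2 open. Muscle lies above PBMC in day 1 (34.5% and 36.1% against 19.6% and 19.2% as deposited, left) and in day 2, and PBMC lies above muscle in brain with equally long lists (right).

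Muscle and PBMC shared more of their bases with each other than either did with brain. The Jaccard index of the common stretches was 0.655 for muscle and PBMC, 0.635 for brain and muscle and 0.597 for brain and PBMC. With all lists at 89979 NMIs it was 0.645, 0.602 and 0.595. Counted as merged NMIs the order was different, with 67.0% shared between muscle and PBMC, 72.5% between brain and muscle and 68.9% between brain and PBMC, and 66.3%, 70.5% and 71.3% with equal lengths. The pairs of libraries ranged from 0.639 to 0.652 for muscle and PBMC, from 0.585 to 0.639 for brain and muscle and from 0.524 to 0.632 for brain and PBMC. These pairs of tissues share libraries, so no test was made between them, and by the Jaccard index with lists as deposited the library pairs of muscle and PBMC did not overlap those of brain and PBMC and overlapped those of brain and muscle at the edge. With all lists at 89979 NMIs the library pairs of muscle and PBMC (0.620 to 0.648) overlapped those of brain and PBMC (0.532 to 0.628) and did not overlap those of brain and muscle (0.550 to 0.611).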

How the data were processed

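BioCAP was performed by the authors on 6 lamprey tissues with 2 replicates each. Reads were trimmed (trimmomatic), mapped to petMar3 (bowtie2), freed of duplicates (Picard) and passed to macs2, 1 list per library; its options and use of input were not given in the sources used here. Each deposited interval carries a fold enrichment (a ratio over local background), a −log10 p-value and −log10 q-value, a score and a summit position. Fold, −log10 q-value and, as an alternative, the deposited summit offset were used; the score, the −log10 p-value and 5 input libraries were not. The lists hold no read counts, so depth is unknown from them, and an absent NMI is one not called.

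Groups were taken from the sample titles. Per tissue, bases common to both replicates were taken, and stretches of muscle and PBMC that overlapped (minimum 1 bp) or touched were joined. Equally long lists held the 115448 NMIs with the largest −log10 q per library (89979 when all 12 libraries were cut). An exact permutation test over libraries (two-sided, 6 arrangements) compared the tissues. Regions named are the 5 longest and the 3 of highest lower-replicate fold per private class among those in no library of the other tissue, the 3 longest shared, the 3 longest runs per class and the 3 scaffolds per class with the highest private share among those with 100 or more merged NMIs; members and lists were chosen with earlier results of these data known. Alternatives were equally long lists by −log10 q or fold, a −log10 q of 10 or more, intervals of either replicate, 50% common extent, 250 bp on each side of the summit, joining up to 500 bp, stretches of 100 bp or more, each library left out, and, added after the data were seen, lists of 20000 and 60000. Functions were tested on simulated lists. Python 3.11.15, NumPy 2.4.6 and Matplotlib 3.10.9 were used. Positions count from 1. No genome or annotation of petMar3 was used, so no sequence, CpG content or gene is given. The sources do not say whether libraries of the same replicate number came from the same animals, and the main test did not pair them. The deviations of the replicate 1 libraries from their tissue means in bases covered had a Pearson r of 0.0155 over 144825 merged NMIs. With 2 libraries per tissue this value cannot decide the question.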

Additional observations from a re-analysis of the deposited data

How the results depend on the processing

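With the replicate number as a block, the difference in NMIs per library stayed at 24740, with an exact permutation p of 0.5, the smallest possible. Equally long lists moved muscle-private NMIs to 21358 (21625 by fold, 16809 at 89979 per library) and PBMC-private NMIs to 21468 (21840 by fold). They moved the private ratio from 3.09 to 0.995, 0.990 and 0.976, close to equal numbers in both tissues. They moved the same-class neighbour ratio of muscle-private NMIs to 1.73, 1.70 and 1.63 and that of PBMC-private NMIs to 1.40, 1.39 and 1.41, the Jaccard index at 89979 to 0.645, and the day 1 difference to 14.1 and, by fold, 10.4 percentage points. With 20000 NMIs per library shared, muscle-private and PBMC-private NMIs were 11784, 4580 and 5315, their private ratio 0.862, the neighbour ratios 1.23 and 1.29, the Jaccard index 0.526 and the day 1 difference 10.7. With 60000, shared NMIs were 42724, muscle-private 11745, the private ratio 0.919, the PBMC neighbour ratio 1.41, the Jaccard index 0.619 and the day 1 difference 11.9. Summit windows gave a Jaccard index of 0.558, neighbour ratios of 1.24 and 1.47 and a day 1 difference of 8.62, and intervals of either replicate a muscle neighbour ratio of 1.51. Leaving out 1 library gave Jaccard indices of 0.640 to 0.653, private ratios of 1.88 (without PBMC replicate 1) to 4.32, neighbour ratios of 1.35 to 1.55 and 1.58 to 2.27, and day 1 differences of 11.9 to 19.5. The brain difference of −2.45 percentage points ranged from −9.25 (equally long lists by fold) to 1.99, and reversed only without PBMC replicate 2 (−5.10 to 1.99 over the libraries left out). The sperm difference of 11.7 was 3.16 with equally long lists, 0.974 with 60000 NMIs and 0.0526 by fold, against an SD of 3.39 over library pairs. It was 13.3 with all lists at 89979 NMIs. The day 2 difference of 11.7 was 2.93 with summit windows, 15.8 with equally long lists and 18.4 with all lists at 89979 NMIs. Both neighbour ratios stayed above 1 and the day 1 and day 2 differences above 0 under all 15 alternatives each. Causes beyond list length were not tested, and 2 libraries per tissue cannot give a permutation p under 0.333.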
